A study of Mus musculus with 9 samples.

Results

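LIF-dependent enhancers are 601 regions whose reporter RNA was called higher in mouse embryonic stem cells with LIF than in cells given retinoic acid (RA). They were selected on these reporter values, the fold and q of LIF over RA: all regions of the deposited LIF over RA list were taken, and 616 rows were collapsed to 601 regions because some regions were listed once per summit. They are 601 of 5657 regions in the 3 enhancer lists of the study. The other lists hold 4674 enhancers called with LIF over the plasmid input (mESC enhancers) and 382 enhancers called with RA over LIF (RA-induced). An mESC enhancer lay under 600 of the 601 members, so they made up 12.8% of the mESC enhancers. The remaining 4074 are called the other mESC enhancers. Of these, 3879 were overlapped by no RA-induced region and are called unchanged. Peak names in the LIF over RA list carry numbers up to 29683, so its 601 regions are a small part of the numbered peaks. The authors' filter is not stated, so whether it required an mESC enhancer is not known.

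Activity was measured by FAIRE-STARR-seq, in which accessible DNA is cloned into the transcribed part of a reporter, so that an active fragment is read in its own RNA. The cells were feeder-free E14, a single line, and the DNA for the library came from E14 cells after RA at 1 µM for 4 h. In 3 biological replicates, the transfected cells were split into a part that lost LIF and got RA at 1 µM for 4 h (3 samples) and a part that received LIF for the same time (3 samples). The plasmid library was sequenced once as input. Binding of the retinoic acid receptor RARA after RA at 1 µM for 4 h was mapped in 1 ChIP library with 1 input library. All groups thus share the cell line. The reporter samples and the plasmid input also share a library of DNA that was accessible after RA, read from plasmids and not from the chromosome. The ChIP library and its input do not read that library, so RARA peaks and reporter values come from different assays. Loss of LIF and exposure to RA began at the same time, so their effects cannot be told apart.

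LIF binds a receptor that works with gp130 and activates JAK kinases and the transcription factor STAT3, which keeps mouse embryonic stem cells self-renewing. RA binds nuclear receptors, RARA among them, that sit on DNA as partners of RXR receptors and turn from repression to activation when bound by their ligand. An enhancer adds to the transcription of a promoter through the factors bound to it, and in this reporter each candidate sits on a plasmid apart from its chromosomal neighbours.

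The lists were called on merged replicates and hold no value per culture, so no test over samples could be made. Regions are not replicates, and the comparisons below carry no p-values. Fold enrichments, −log10 q values and scores are the authors' own values for each peak. Intervals are 95% Wilson intervals for shares and 95% order-statistic intervals for medians, and they cover counting error alone. Where a count is 0, the share still allowed is given as 3 regions of the total instead of a Wilson limit. Since the LIF over RA call chose the members, all values of that contrast, and the LIF signal that enters it, are given as a description. Positions are on mouse build mm9, counted from 1.

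The LIF over RA fold, taken at the summit of each member, ran from 1.89 to 25.7, with a median of 5.25 and quartiles of 3.81 and 7.42. It was at least 3 in 538 members, at least 5 in 322, at least 10 in 48 and at least 15 in 8. The list is therefore mostly one of moderate folds with a short upper end. The 10 members of highest fold lay on 8 chromosomes and had folds from 14.1 to 25.7. The highest lay on chromosome 19 from 53841929 to 53842130, with a LIF over input fold of 22.8 at the same summit. The next, on chromosome 1 from 30995692 to 30995892, had a LIF over RA fold of 18.2 and a LIF over input fold of 14.5. The third, on chromosome 15 from 47027736 to 47027927, had 17.98 over RA and 10.1 over input. Large folds over RA thus came with quite different folds over input. On chromosome 4 from 75447033 to 75447310, and on chromosome 1 from 11735613 to 11736026, the folds over input, 16.5 and 15.99, were close to those over RA, 17.05 and 16.9. Among the other five of the 10, the fold over input was lowest on chromosome 3 from 106054069 to 106054374, with 5.14 against 14.8 over RA. The 10 members had scores from 1.99 to 4.34, and none of them overlapped an RARA peak, which with 10 regions allows a share of up to 30%.

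At the other end, the list reached down to a −log10 q of 1.389 (chromosome 17 from 66861469 to 66861815, and chromosome 2 from 59583532 to 59583796), where the fold was 2.899 in both. The peak names carry a q label of 005, and regions that missed the authors' filter were not analysed here. The 5 members of lowest −log10 q had folds from 2.39 to 3.32, and 1 of them overlapped an RARA peak, on chromosome 5 from 76267244 to 76267484. The 5 of highest −log10 q (from 74.1 to 154.8) had folds from 3.55 to 12.8. The first of these lay on chromosome 15 from 8781977 to 8782309 and combined a LIF over RA fold of 7.80 with a LIF over input fold of 30.3. A high −log10 q therefore did not need an extreme fold. Across the members, the −log10 q followed the LIF over input fold (Spearman rho 0.667, n = 600 regions) more closely than it followed the LIF over RA fold (rho 0.309, n = 601 regions). The regions share the same merged libraries, and the LIF reads enter all of these values.

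**Figure D1:**
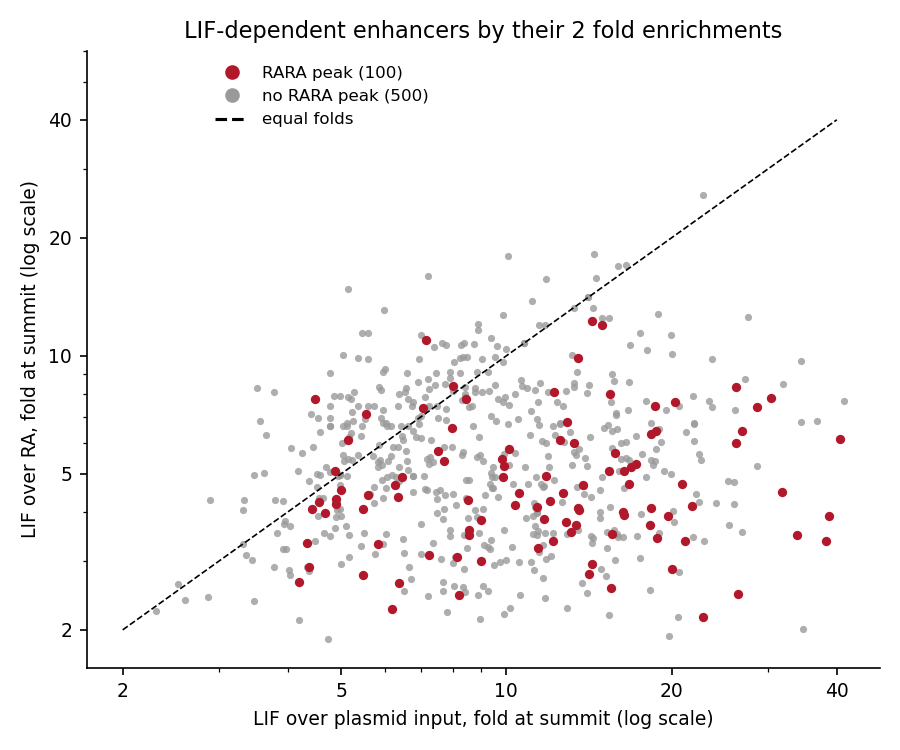
Each point is 1 of the 600 LIF-dependent enhancers that lie on an mESC enhancer, with the LIF over plasmid input fold on the x axis and the LIF over RA fold on the y axis, both on log scales. Red points overlap an RARA peak, grey points do not, and the dashed line marks equal folds; above it, 7 of 134 members are red, and on or below it 93 of 466.

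The fold over RA was almost unrelated to how far a member stood above the plasmid input. Between LIF over RA fold and LIF over input fold, Spearman's rho was 0.0748 (n = 600 regions). Against the deposited score it was 0.217 (n = 600), and against the fold enrichment of the plasmid library it was -0.318 (n = 581). Among the members, well represented DNA thus tended to have lower folds over RA. The members were selected on the fold and q of this contrast, so the relation describes the list and not DNA outside it. In 134 of the 600 members (22.3%, 19.2 to 25.8%) the LIF over RA fold exceeded the LIF over input fold. Of the 10 members of highest LIF over RA fold, 9 were of this kind. These 134 had a median LIF over RA fold of 7.80 and a median LIF over input fold of 5.91, while the other 466 had 4.66 and 10.9. Both folds were equal to within 0.1% in 10 members, with values from 3.32 to 14.1. Of those, 5 lay in no plasmid input region, and the other 5 in weakly enriched ones (3.00 to 4.00-fold). Some members far apart had the very same values. A LIF over RA fold of 14.091 with a −log10 q of 22.07 was listed on chromosome 17 (67092556 to 67092756) and chromosome 13 (111709312 to 111709517). Read counts are not given, and whether such values rest on few reads was not tested. The scaling of the libraries to each other is not stated in the sources, so the position of a single member against the line of equal folds is approximate.

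The LIF over RA and LIF over input summits marked the same point in most members. In 418 of 600 the summits were at the same base (69.7%, 65.9 to 73.2%), and in 515 they lay within 10 bp. They were over 100 bp apart in 9. The members were shorter than the mESC enhancers they sat on, with a median width of 267 bp (quartiles 230 and 322 bp) against 346.5 bp. Of the 600, 524 lay wholly inside their mESC enhancer, 119 had exactly its start and end, and 24 covered under 50% of it. Both calls use the same merged LIF reads, so shared summits are partly fixed by the way the lists were made and do not locate the change between LIF and RA. The widest gap between summits, 549 bp, was on chromosome 17 from 71178061 to 71178334, where the member covered 33.3% of an enhancer of 822 bp. A gap of 432 bp, also on chromosome 17, from 36053641 to 36053894, came with 32.3% of an enhancer of 787 bp. The 1 member on no mESC enhancer lay on chromosome 12 from 5062285 to 5063025, with 4.34-fold over RA, a −log10 q of 2.77, an input fold of 9.71 and no RARA peak.

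Only 14 members (2.33%, 1.39 to 3.87%) were listed with more than 1 summit, a share close to the 2.28% (1.87 to 2.79%) of mESC enhancers without a member. Their outer summits were 98 to 432 bp apart, with a median of 290 bp, in regions of 512 bp at the median. Within a region the summits had similar folds, the highest being 1.10 times the lowest at the median and at most 1.36 times. All 14 had a LIF over RA fold below the median of the members. The strongest, on chromosome 11 from 23155444 to 23156141, had 5.20 at its stronger and 4.91 at its weaker summit, 368 bp apart. The 1 member with 3 summits lay on chromosome 9 from 40608807 to 40609307, with folds from 1.701 to 1.92 and a LIF over input fold of 19.8. Of the 14, 1 overlapped an RARA peak, on chromosome 7 from 119834611 to 119835263.

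Members lay across the whole range of activity of mESC enhancers, from a score of 0.716 to 4.85, where the full list ran from 0.445 to 5.42. The share of mESC enhancers that were LIF-dependent was 20.5% (17.1 to 24.4%) in the highest decile by score and between 8.99% and 14.1% in the other 9. By the −log10 q of LIF over input, both ends stood out. The lowest decile had 22.2% (18.7 to 26.2%), the fourth had 8.12% (5.97 to 10.9%) and the highest 19.7% (16.3 to 23.5%). By the width of the mESC enhancer, the share was 22.4% (18.9 to 26.4%) in the widest decile, with 459 to 1280 bp, against 7.49% (5.44 to 10.2%) in the second, with 226 to 252 bp. Those with a member had a median width of 346.5 bp (333 to 359 bp), against 310 bp (307 to 313 bp) in those without. The members therefore came more often from the weakest and the strongest calls by −log10 q and from wide ones. The lowest decile by score, with 13.2% (10.5 to 16.6%), was close to the share over all. The narrowest decile had 15.6% (12.6 to 19.2%). The LIF reads enter the −log10 q and the width as well as the call of the members, and what enters the score is not stated, so these shares describe the list and do not test it.

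**Figure D2:**
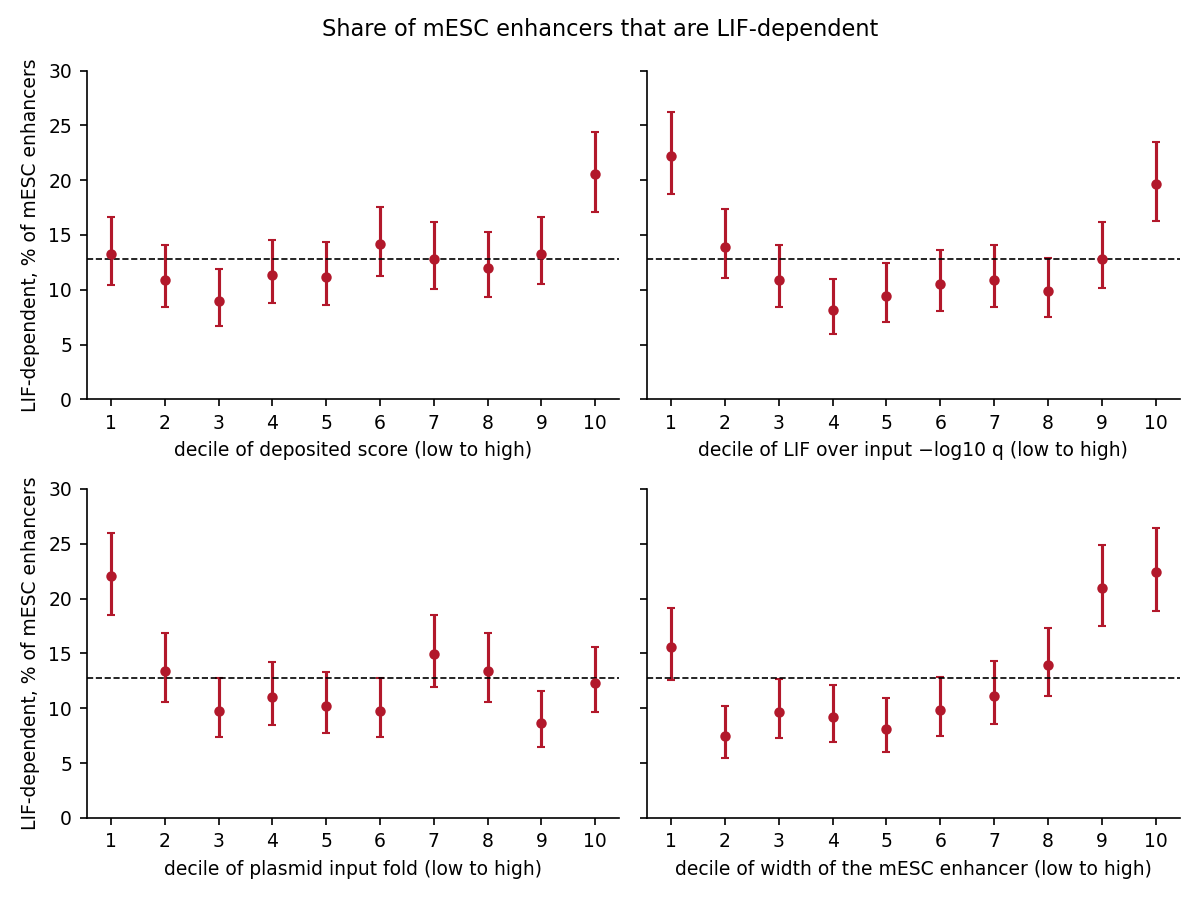
The share of mESC enhancers overlapped by a LIF-dependent region (y axis, percent, with 95% Wilson intervals) in deciles, low to high, of the deposited score, the LIF over input −log10 q, the plasmid input fold and the width of the mESC enhancer. The dashed line is the share over all mESC enhancers, 12.8%; the lowest and the highest decile both lie above it in the panels of score, −log10 q and width.

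Among the 10 members of highest score, from 4.34 to 4.85, the LIF over RA fold varied from 3.47 to 25.7. On chromosome 6 from 49225272 to 49225603 a score of 4.76, the third of the whole mESC list, came with 7.66-fold over RA. On chromosome 16 from 31525353 to 31525646 a score of 4.45 came with 4.35-fold over RA and 5.97-fold over input. High scores did not need strong representation in the library: 9 of the 10 had a plasmid input fold below the members' median. The exception, on chromosome 13 from 86484938 to 86485178, had an input fold of 21.7, a LIF over input fold of 38.8, a LIF over RA fold of 3.91 and an RARA peak. The 5 members of lowest score, from 0.716 to 1.12, all had input folds above that median, from 15.1 to 24.1. The sources do not state how the score was computed.

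The DNA of most members was well represented in the plasmid library. A plasmid input region lay under 581 of 601 (96.7%, 94.9 to 97.8%), against 99.2% (98.9 to 99.4%) of the other mESC enhancers. The median input fold was 12.3 (11.5 to 13.1) in members and 12.9 (12.7 to 13.2) in the other mESC enhancers, far from the 5.48 of all input regions. In the decile of mESC enhancers with the lowest input fold, from 2.07 to 6.00, 22.0% were LIF-dependent (18.5 to 26.0%). In the next 9 deciles the share was between 8.66% and 14.9%. The share thus stood highest in the least represented decile. The deciles cover only mESC enhancers on an input region, which were 580 of 600 with a member and 4042 of 4074 others.

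The 20 members outside the called library DNA lay on 14 chromosomes and had LIF over RA folds from 3.22 to 14.1, with a median of 7.23, above that of the list. The strongest lay on chromosome 17 from 67092556 to 67092756, with a fold of 14.1 over RA and 14.1 over input and a score of 4.05. The next, on chromosome X from 54914901 to 54915105, had 13.3 over both and a score of 4.12. None of the 20 overlapped an RARA peak, which allows a share of up to 15%. Among the other mESC enhancers, all 760 with an RARA peak lay on an input region, so none outside one had a peak. The lack of RARA peaks outside the called library DNA was thus not particular to the members.

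RARA occupied the members about as often as other mESC enhancers. Of the 601 members 100 overlapped an RARA peak by at least 1 bp (16.6%, 13.9 to 19.8%), while over all mESC enhancers the share was 18.5% and over all plasmid input regions 2.94%. Measured on the mESC enhancer under each member, so that the regions compared were called alike, the share was 106 of 600 (17.7%, 14.8 to 20.9%), against 18.7% (17.5 to 19.9%) of the other mESC enhancers. In the unchanged ones among these the share was 17.3% (16.2 to 18.6%). In RA-induced enhancers it was 30.9% (26.5 to 35.7%). In the 195 of these that lay on an mESC enhancer, as nearly all members do, it was 44.1% (37.3 to 51.1%). In the 187 RA-induced enhancers outside mESC enhancers it was 17.1% (12.4 to 23.2%). Each of the 100 members had a single RARA peak, and in 84 of them an RARA summit lay inside the member. These were 14.0% of all members, where the like share was 16.1% of the other mESC enhancers. No RARA data for cells with LIF were analysed here, so occupancy before RA is not known.

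Within the list, RARA peaks were found at members with lower folds over RA and higher signal. In quartiles of LIF over RA fold, low to high, the share with a peak was 20.5% (14.9 to 27.7%), 24.7% (18.5 to 32.1%), 12.7% (8.26 to 18.9%) and 8.67% (5.13 to 14.3%). In quartiles of LIF over RA −log10 q it was 10.6%, 12.0%, 14.0% and 30.0% (23.2 to 37.8%). In quartiles of LIF over input fold it ran from 11.3% (7.20 to 17.4%) in the lowest to 26.0% (19.6 to 33.6%) in the highest. The share thus went in opposite directions with the size of the change and with its −log10 q. The score, by contrast, showed no such order, with 18%, 10.7%, 19.3% and 18.7%. Members with an RARA peak had a median LIF over RA fold of 4.34 (4.07 to 4.91), against 5.47 (5.22 to 5.78) in the 501 without. Their median LIF over input fold was 12.4 (9.89 to 13.8), against 8.85 (8.34 to 9.36).

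**Figure D3:**
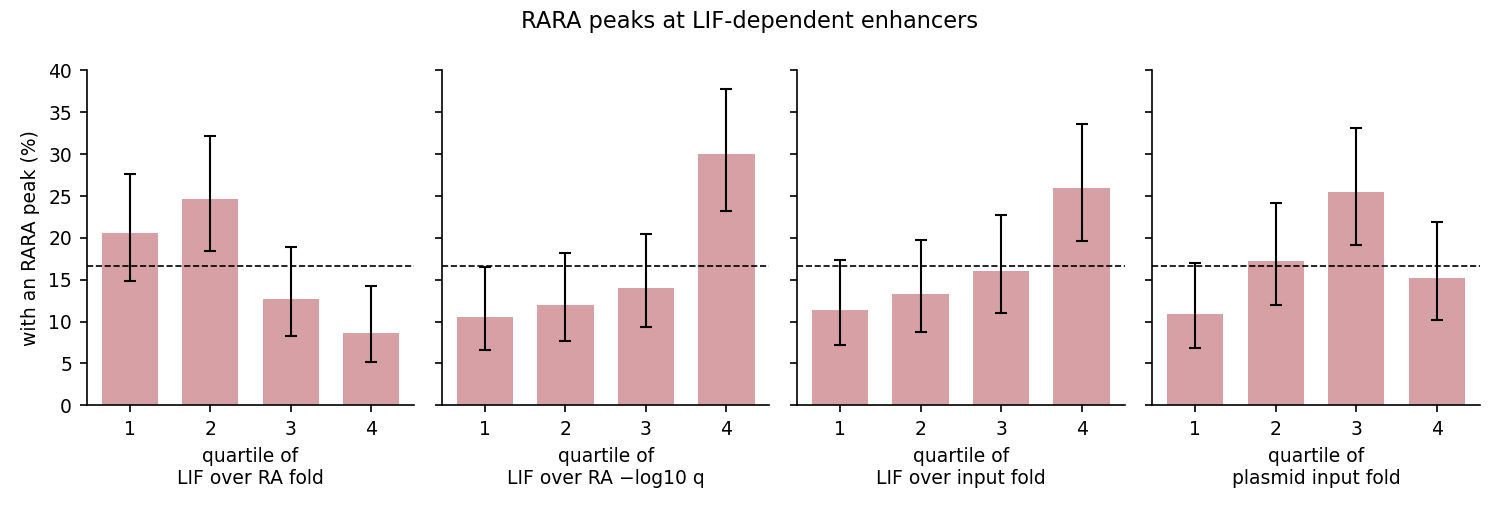
The share of LIF-dependent enhancers that overlap an RARA peak (y axis, percent, with 95% Wilson intervals) in quartiles, low to high, of LIF over RA fold, LIF over RA −log10 q, LIF over input fold and plasmid input fold. The dashed line is the share over all 601 members, 16.6%; the bars go down to 8.67% in the highest quartile of LIF over RA fold and up to 30.0% in the highest of its −log10 q.

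The members were also split at the medians of both folds, which share their LIF reads and of which the LIF over RA fold chose the members, so the shares are a description. With a LIF over RA fold above 5.25, RARA peaks lay at 14.9% (22 of 148; 10.0 to 21.5%) of members with a high and 6.67% (10 of 150; 3.66 to 11.8%) of members with a low LIF over input fold. At or below that LIF over RA fold, they lay at 27.0% (41 of 152; 20.6 to 34.5%) and 18% (27 of 150; 12.7 to 24.9%). On either side of the LIF over RA median, the intervals of high and low LIF over input fold overlapped. Representation in the library moved with the LIF over RA fold, so the 580 members with both values were also split at the median plasmid input fold, 12.3, and at their median LIF over RA fold, 5.22. Members above 5.22 had RARA peaks in 14.3% (16 of 112; 8.99 to 22.0%) with a high and 9.55% (17 of 178; 6.05 to 14.8%) with a low input fold. Members at or below 5.22 had them in 24.2% (43 of 178; 18.5 to 30.9%) and 21.4% (24 of 112; 14.8 to 29.9%). With a high input fold the intervals of large and small LIF over RA folds overlapped, and with a low input fold they were just apart. The part of library representation in these shares was not tested.

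Against the other mESC enhancers, the members' RARA share was lower where the library held little of their DNA. In quartiles of the plasmid input fold over all mESC enhancers, low to high, RARA peaks lay at 11.1% (7.38 to 16.4%), 22.0%, 25.0% and 17.4% of mESC enhancers with a member. In the other mESC enhancers they lay at 19.5% (17.2 to 22.2%), 20.4%, 19.0% and 16.2%. The intervals were apart in the lowest quartile and overlapped in the next 3. In quartiles of the LIF over input fold the shares were 12.7%, 14.9%, 13.0% and 26.7% with a member and 15.9%, 16.5%, 18.1% and 24.4% without one. In both groups the highest quartile had the highest share. These differences between groups of regions were not tested.

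A wider gap was seen at the line of equal folds. Of the 134 members whose LIF over RA fold exceeded their LIF over input fold, 7 overlapped an RARA peak (5.22%, 2.55 to 10.4%). Of the 466 other members 93 did (20.0%, 16.6 to 23.8%). Their median input folds also differed, with 8.79 (7.63 to 10.7) against 13.05 (12.3 to 14.0). Among members with an input fold above 12.3 the shares were 4.76% (2 of 42) and 23.0% (57 of 248), and among those at or below it 6.10% (5 of 82) and 17.3% (36 of 208). With an RARA summit required inside the member, the shares were 5.22% and 16.5%. With the stronger 50% of RARA peaks they were 3.73% and 11.8%. Both folds use the LIF reads, so at a shared summit the split sets the RA signal against the plasmid input signal, apart from scaling. It was chosen after the values were seen and was not tested.

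Where RARA was present at a member, its peak was of ordinary strength. RARA fold enrichment had a median of 3.48 (3.22 to 3.90) at the 100 members and 3.41 (3.29 to 3.51) at 760 of the other mESC enhancers. At 118 RA-induced enhancers it was 5.13 (3.98 to 6.56). An RARA fold of at least 10 was seen in 7 of the 100 members (7%, 3.43 to 13.7%), in 28.0% (20.7 to 36.7%) of RA-induced enhancers with a peak and in 7.76% (6.07 to 9.89%) of the other mESC enhancers with one. The other mESC enhancers include some overlapped by RA-induced regions. In the unchanged ones the median RARA fold was 3.32 (3.23 to 3.43), and 5.05% (3.64 to 6.98%) of those with a peak reached 10. Members and other mESC enhancers thus had like distributions, and that of RA-induced enhancers lay higher. Peaks with several RARA summits were at 31 of the 100 members (31.0%, 22.8 to 40.6%), against 20.4% (17.7 to 23.4%) in the other mESC enhancers with a peak and 22.9% (16.2 to 31.2%) in RA-induced ones. The nearest RARA summit was 50 bp (38 to 60 bp) from the member's summit at the median and 56 bp (51 to 61 bp) from that of the other mESC enhancers. Among members with a peak, the RARA fold was hardly related to the LIF over RA fold (Pearson r -0.162, Spearman rho -0.173, n = 100 regions of 1 ChIP library).

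**Figure D4:**
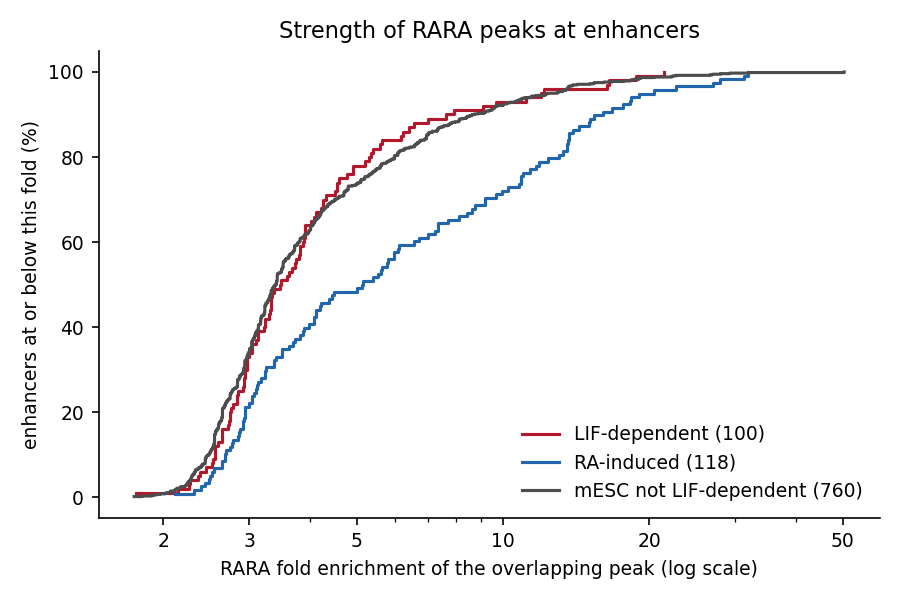
Cumulative share (y axis, percent) of enhancers with an RARA peak by the fold enrichment of that peak (x axis, log scale) for 100 LIF-dependent enhancers, 118 RA-induced enhancers and 760 mESC enhancers that are not LIF-dependent. The curve of LIF-dependent enhancers runs close to that of the other mESC enhancers, with medians of 3.48 and 3.41, and the RA-induced curve lies to the right, with a median of 5.13.

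The 10 members with the strongest RARA peaks had RARA folds from 7.91 to 21.5, and 9 of them had a LIF over RA fold below the members' median. The strongest peak, 21.5-fold, overlapped the member on chromosome 12 from 87842508 to 87843068, where the LIF over RA fold was 4.17 and the score 2.40. A peak of 18.8-fold overlapped a member of 4.47-fold over RA on chromosome 8 from 130566863 to 130567114. On chromosome 14 (121905600 to 121905864) a peak of 16.5-fold met a LIF over RA fold of 2.95. RARA peaks of high fold were thus found at enhancers whose reporter was lower after RA. The exception among the 10 lay on chromosome 7 (30982864 to 30983154), where RARA was enriched 7.91-fold, with a LIF over RA fold of 10.96 and a LIF over input fold of 7.13. The RARA peaks of 7 of the 10 had several summits. On chromosome 4 (141121323 to 141121634), RARA was enriched 12.2-fold, while the LIF over RA fold was 3.498 and the −log10 q 74.0.

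That last member was also the one nearest to an RA-induced enhancer, which lay 4640.5 bp away between midpoints, from 141125891 to 141126347. The RA-induced enhancer had a fold of 6.86 over LIF, and it too overlapped an RARA peak. On chromosome 14, a member from 35173097 to 35173399 (6.83-fold over RA, no RARA peak) lay 4766 bp from an RA-induced enhancer with an RARA peak, from 35177811 to 35178217, of 7.46-fold. On chromosome 10 a pair without any RARA peak lay 6757 bp apart, with the member from 66563064 to 66563387. The next pairs, 10471 bp apart on chromosome 4 (member from 137990456 to 137990674) and 13523 bp apart on chromosome 2 (member from 20576477 to 20576805), both had an RARA peak at the RA-induced enhancer, and the second also at the member. Such neighbours of opposite change were few. An RA-induced enhancer lay within 50 kb of 19 of the 601 members (3.16%, 2.03 to 4.88%). Among mESC enhancers that no RA-induced region overlapped, the share was 3.57%.

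Members were somewhat more isolated from other mESC enhancers at the larger distances. Another mESC enhancer lay within 12500 bp of 54 of the 600 (9%, 6.96 to 11.6%), where the share over all mESC enhancers was 11.6%. Within 50 kb it was 28.3% (24.9 to 32.1%) of the members against 34.7% (33.2 to 36.2%) of mESC enhancers that were not LIF-dependent. Within 100 kb it was 43.8% (39.9 to 47.8%) against 51.7% (50.2 to 53.2%). Within 5 kb the shares were 4.83% (3.39 to 6.86%) and 4.52% (3.92 to 5.20%), so the difference was seen from the larger distances and not at the smallest. These differences were not tested, and neighbouring regions are not independent.

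**Figure D5:**
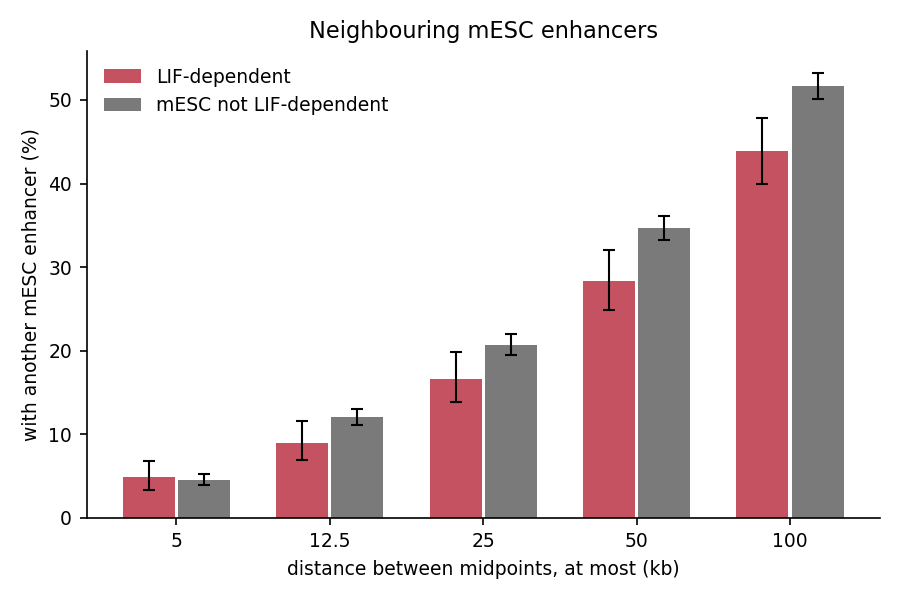
The share of LIF-dependent enhancers and of other mESC enhancers (y axis, percent, with 95% Wilson intervals) that have another mESC enhancer within each distance between midpoints (x axis, kb). The bars are level at 5 kb, with 4.83% and 4.52%, and the LIF-dependent bar is lower at 100 kb, with 43.8% against 51.7%.

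Of the 54 members with a neighbour within 12500 bp, the nearest one was itself LIF-dependent in 8 (14.8%, 7.70 to 26.6%), against 44 of 490 (8.98%, 6.76 to 11.8%) for the neighbours of other mESC enhancers and 12.8% of all mESC enhancers. Within 25 kb the nearest neighbour was LIF-dependent for 16% (10.1 to 24.4%) of 100 members and 9.72% (7.90 to 11.9%) of 844 other mESC enhancers. Within 50 kb it was so for 14.7% (10.2 to 20.8%) of 170 members and 10.4% (8.92 to 12.1%) of 1413 others. Within 100 kb the shares were 14.4% (10.7 to 19.2%) of 263 members and 10.5% (9.26 to 11.9%) of 2106 others. Within 5 kb the shares were nearly level, with 13.8% (4 of 29; 5.50 to 30.6%) and 13.0% (24 of 184; 8.92 to 18.7%). At the 4 larger distances the members' share was the higher, with overlapping intervals. Each distance includes the neighbours of the smaller ones, so these comparisons are not independent, and the difference was not tested. The 8 members form 4 pairs. In the closest, on chromosome 3, members from 88375804 to 88376224 and from 88376778 to 88377034 lay 892 bp apart, with folds of 7.75 and 4.23 over RA, and the first had an RARA peak. On chromosome 1, members from 53806846 to 53807097 and from 53807765 to 53808048 lay 935 bp apart, with folds of 4.81 and 12.0, and the second had an RARA peak. In neither of these pairs were the paired folds alike. The pair on chromosome 18 (75520612 to 75520860 and 75526322 to 75526703) had folds of 6.70 and 3.69. The pair on chromosome 2 (143735045 to 143735229 and 143740783 to 143741255) had 4.91 and 4.26, and scores of 4.33 and 1.30.

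Members were found on all 19 autosomes listed and on the X chromosome. As a share of each chromosome's mESC enhancers they ran from 9.32% on chromosome 16 (15 of 161; 5.73 to 14.8%) to 18.4% on chromosome 18 (27 of 147; 12.9 to 25.4%), and these intervals overlap. The X chromosome had 12.7% (16 of 126; 7.97 to 19.6%). Median LIF over RA folds per chromosome lay between 4.06 on chromosome 8 and 6.61 on chromosome 16. RARA peaks were at none of the 16 members of the X and none of the 15 of chromosome 16, which allows shares of up to 18.8% and 20%. On the other chromosomes the members' share ran from 8.70% on chromosome 17 to 31.8% on chromosome 14. The X and chromosome 16 are named for their lack of peaks. RARA shares of all mESC enhancers were not counted per chromosome, so whether the lack is particular to the members is not known.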

How the data were processed

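The members and all lists were chosen with earlier results of these data known. The submitters' processing notes name build mm9 and the tools MACS2, Bowtie2, SAMtools, deepTools and UMI-tools, without their order, settings or versions. The peak lists were deposited without a header and name merged replicates. The fold enrichment (a ratio) was made by the authors' peak caller at each summit, as deposited. The −log10 q of each peak was likewise made by the authors' peak caller, as deposited, as was its summit position. The score of each mESC enhancer was computed by the authors on a scale that the deposited table does not state. Read depth is unknown. The 616 rows of the LIF-dependent list, and those of the other lists, were reduced to 1 per region, keeping the summit with the largest −log10 q. Coordinates are mm9, counted from 1. Regions were shared at an overlap of at least 1 bp; where several overlapped, the strongest by fold was used. Named regions followed a written rule: the 10 members of highest LIF over RA fold, of highest score and of strongest RARA peak, the 5 of lowest −log10 q, pairs within 12500 bp, the 5 nearest to an RA-induced enhancer, and small categories. Others (highest −log10 q, lowest score, widest summit gaps, members with several summits or with no input region, nearest neighbours) were named after their values were seen. Overlap, distance and interval code was tested on simulated regions. No genome of build mm9 was at hand, so sequences, motifs and nearest genes were not analysed here. Computation used pandas 2.3.3 and NumPy 2.4.6 under Python 3.11.15, intervals used SciPy 1.17.1, and plots used Matplotlib 3.10.9.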

Additional observations from a re-analysis of the deposited data

How the results depend on the processing

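No paired analysis was possible because the lists come from merged replicates and hold no value per replicate. For the same reason no replicate could be left out. Of 40 alternatives, 30 stayed within the 95% interval of the value reported and 10 did not. The RARA share of 16.6% was 9.98% with the stronger 50% of RARA peaks. With those peaks it was 12.0% in the other mESC enhancers and 24.1% in RA-induced enhancers. With all RARA peaks, the share was 21.9% in the stronger 50% of the members by −log10 q. Those members were 6.44% of mESC enhancers, against 12.8% for all, had a median score of 2.80 (all: 2.61) and a median input fold of 14.2 (all: 12.3). With log2 of the LIF over input fold in place of the score the median was 3.18, on another scale. Midpoints in place of summits gave a median gap of 10.0 bp, against 0. The share of members with another member near was 1.33% at 12500 bp, 0.666% at 5 kb and 4.66% at 50 kb. The share with an RA-induced enhancer near was 3.16% at 50 kb and 0.666% at 12500 bp. Fewer peaks, fewer members or another distance account for the lower and higher counts by construction; for the stronger members the cause was not tested. Read depth, which is unknown, limits all single values.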

Other observations

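Some LIF-dependent enhancers lay under 1 kb from an mESC enhancer that was in neither list of changed regions; they are named here after their values were seen. On chromosome 17 a member from 24388315 to 24388588, of 4.99-fold over RA, lay 527.5 bp from an mESC enhancer, from 24388879 to 24389079, of 7.37-fold over input. On chromosome 7 a member from 56173353 to 56173635, of 4.28-fold over RA, lay 574 bp from one of 6.69-fold over input. On chromosome 18 a member from 82946928 to 82947215, of 8.30-fold over RA, lay 662 bp from one of 5.52-fold over input, and both overlapped an RARA peak.

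Of the windows of 1 Mb that held any member, 427 held 1, 75 held 2 and 8 held 3. The 8 lay on chromosomes 2, 3, 7, 9, 10 and 11. They held from 5 mESC enhancers, as on chromosome 11 from 94000001 to 95000000, to 13, as on chromosome 10 from 79000001 to 80000000. These windows were picked for their number of members, and windows were not counted in the same way for all mESC enhancers.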
